A study of Mus musculus with 2 samples.

Results

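The 9 genes described here encode the pathway by which cells show peptides to CD8 T cells on MHC class I: H2-K1 and H2-D1, the classical heavy chains, B2m, the light chain beta-2-microglobulin, Tap1 and Tap2, the peptide transporter of the endoplasmic reticulum, Tapbp, the loading chaperone tapasin, Psmb8 and Psmb9, the immunoproteasome subunits, and Nlrc5, the transactivator of class I genes. They were chosen by symbol and are 9 of the 32285 gene rows of the count tables, each found in 1 row. Dorsal skin of male C3H/HeN mice was pooled from 15 animals per group, digested with collagenase and measured by droplet single-cell RNA sequencing, which reads the 3′ end of polyadenylated transcripts and counts molecules by unique molecular identifiers (UMIs). The control group (Con) received vehicle, and the group used as a model of androgenetic alopecia (TP) received 0.5 mg of testosterone propionate per day under the skin from 7 weeks of age, and both were taken at 9 weeks. The group that also received an antibody is not analysed here. Each group is 1 library of pooled mice, so there is no replicate, no difference between the libraries could be tested, and all intervals (95%) cover counting error only.

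MHC class I molecules are loaded with peptides that the proteasome cuts in the cytosol and the transporter carries into the endoplasmic reticulum, where tapasin and other chaperones hold the empty heavy chain. Interferon raises the whole set of genes, and Nlrc5 acts on a conserved promoter module of X and Y boxes. In skin, interfollicular keratinocytes carry class I, whereas the growing lower hair follicle is known as a site of relative immune privilege with little class I, a state whose loss is linked to autoimmune hair loss.

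After filters on genes per cell, mitochondrial counts and called doublets, 39076 Con cells with a median of 2045 UMIs and 18542 TP cells with a median of 4776 UMIs were kept. The loss was unequal, since 3465 of 45709 Con barcodes and 5871 of 25931 TP barcodes were over the mitochondrial limit. The libraries shared 303 barcodes, 186 of them among kept cells. Cells were clustered without the members and without any gene whose symbol begins with H2-, and clusters were named from fixed markers, as in outer bulge-like. Basal and suprabasal cells of the interfollicular epidermis (IFE) formed the epidermis pool, with 5198 Con and 6656 TP cells. Outer bulge-like, inner bulge germinative layer-like, inner root sheath-like and cortex-like cells formed the follicle pool, with 12626 Con and 3461 TP cells. Of these, 614 Con and 1564 TP cells were outer bulge-like, a class of the upper and not the lower follicle. Unnamed clusters were in neither pool, so the follicle pool is not the whole lower follicle. Those nearest to follicle classes included clusters 0, 2 and 4, with 4519, 3807 and 2151 cells in Con. In TP these clusters had 318, 206 and 1105 cells. Most markers were higher in their class than in the whole library. Krt14 was at 6043 UMIs per 1000000 UMIs of the class (CPM) in IFE basal-like Con cells against 924.6 in the whole Con library, Krt10 at 14732 against 3017 in IFE suprabasal-like cells, and Krt71 at 3856 against 1234 in inner root sheath-like cells. The exceptions in the classes of both pools were Wnt10a in germinative layer-like cells, at 17.7 against 19.0 CPM in Con and 18.2 against 23 in TP, and Cd34 in outer bulge-like TP cells, at 26.6 against 31.7. Hoxc13 was little higher in germinative layer-like Con cells, at 88.8 against 80.6 CPM. No cluster was named for the medulla or the companion layer.

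C3H mice carry the k haplotype of H2, whereas the mm10 reference is that of C57BL/6, which carries the b haplotype. The heavy chain genes are also similar in sequence to each other and, to differing degrees, to the non-classical genes. The counts of H2-K1, H2-D1 and the non-classical genes are therefore uncertain as to gene, and levels are compared between cells and not between genes. B2m lies on chromosome 2 at 122147687-122153082 and Nlrc5 on chromosome 8 at 94434335-94527272, and the other members lie on chromosome 17 between the start of Tapbp at 33919478 and the end of H2-D1 at 35267497 (GRCm38.p6).

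Since the genes vary together, their promoters are shown to let the shared elements be seen. RefSeq windows of 300 bases, 250 before and 50 after the annotated start, were found for 7 of the 9 genes. Nlrc5 and Tap2 had none in the table. In these GRCm38.p6 sequences of the C57BL/6 reference, written 5′ to 3′ on the strand of the gene, capitals mark every match on either strand to the interferon-stimulated response element core (GAAA, any 2 bases, GAAA), its class I form (GAA, any 2 bases, GAAA), the kappaB core (GGG, any 2 bases, TTCCC), the X2 box core TGACG and the Y box core CCAAT. H2-K1 (chr17:34000298-34000597, minus strand), H2-D1 (chr17:35262844-35263143, plus strand), B2m (chr2:122147437-122147736, plus strand) and Tap1 (chr17:34187306-34187605, plus strand) are printed.
H2-K1: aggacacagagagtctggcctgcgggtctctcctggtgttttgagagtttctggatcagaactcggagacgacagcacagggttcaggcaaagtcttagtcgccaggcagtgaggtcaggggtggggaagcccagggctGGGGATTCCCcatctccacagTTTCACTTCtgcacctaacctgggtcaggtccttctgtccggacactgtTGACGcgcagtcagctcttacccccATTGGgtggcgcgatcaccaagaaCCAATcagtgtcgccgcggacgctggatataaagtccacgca
H2-D1: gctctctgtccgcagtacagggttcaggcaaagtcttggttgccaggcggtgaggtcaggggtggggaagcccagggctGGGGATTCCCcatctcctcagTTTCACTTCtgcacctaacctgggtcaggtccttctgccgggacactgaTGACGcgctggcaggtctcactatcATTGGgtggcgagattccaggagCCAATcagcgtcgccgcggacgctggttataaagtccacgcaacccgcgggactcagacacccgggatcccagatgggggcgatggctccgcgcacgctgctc
B2m: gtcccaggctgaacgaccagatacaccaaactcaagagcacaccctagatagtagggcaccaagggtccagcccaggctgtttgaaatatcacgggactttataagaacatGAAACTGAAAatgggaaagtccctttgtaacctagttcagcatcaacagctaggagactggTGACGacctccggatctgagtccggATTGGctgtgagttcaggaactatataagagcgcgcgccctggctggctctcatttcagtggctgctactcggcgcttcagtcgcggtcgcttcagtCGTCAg
Tap1: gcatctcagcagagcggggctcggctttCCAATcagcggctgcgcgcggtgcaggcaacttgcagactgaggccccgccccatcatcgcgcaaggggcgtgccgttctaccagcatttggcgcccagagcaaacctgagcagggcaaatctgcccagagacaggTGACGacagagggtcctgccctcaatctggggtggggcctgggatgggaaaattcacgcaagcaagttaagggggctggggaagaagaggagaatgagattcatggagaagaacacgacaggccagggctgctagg

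The H2-K1 and H2-D1 windows each held 1 kappaB core, 1 class I form of the response element, 1 TGACG and 2 Y box cores, in the same order. H2-K1 had windows at 2 annotated starts, of which the first is printed. With the annotated start counted as 0, the kappaB core began at -111 in H2-K1 and at -171 in H2-D1, and the response element at -90 and -150. From the other H2-K1 start they began at -125 and -104. B2m held the interferon-stimulated response element core at -139, TGACG matches at -78 and 44 and a CCAAT match at -53. Among the 32851 windows of the table, the kappaB core was found in 1.75%, the response element core in 3.44%, its class I form in 7.52%, TGACG in 20.8% and CCAAT in 37.4%, and TGACG and CCAAT are thus common. The starts of Tap1 and Psmb9 lie 226 bases apart on opposite strands, and their windows overlap by 275 bases. Neither held a match to the response element or kappaB cores, and Tapbp and Psmb8 held none either, which says only that these letters are not in these windows.

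B2m was highest in myeloid-like cells, high in interfollicular epidermis, endothelial-like and upper hair follicle-like cells, and lowest in the lower follicle. This light chain, which class I molecules need to reach the surface, was at 1066 CPM (1043 to 1090) in IFE basal-like Con cells and 1457 (1437 to 1476) in TP. It was at 80.9 CPM in inner root sheath-like, 85.1 in germinative layer-like and 87.0 in cortex-like Con cells, and at 151, 102 and 125 in TP. Outer bulge-like cells lay between, at 223 CPM in Con and 280 in TP. Upper hair follicle-like cells, the infundibular part, were at 743 and 1131 CPM. The order of these keratinocyte classes was the same in both libraries, apart from the 3 lowest, whose places changed.

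Outside the keratinocytes, B2m was at 433 CPM in dermal papilla-like and 634 in dermal fibroblast-like Con cells, and at 484 and 954 in TP. Melanocyte-like cells stood at 367 and 801 CPM. Endothelial-like cells stood at 1012 and 1568 CPM, and lymphocyte-like cells at 658 and 1138. The lymphocyte-like values are of differently made-up classes, since a subcluster led by Samd13, Lhfpl3 and Lsamp, none of them among the fixed lymphocyte markers, held 101 of the 203 Con cells and 14 of the 94 TP cells. Myeloid-like cells had the highest level in both libraries, 2952 CPM in Con from 13 cells and 3033 in TP from 187 cells. H2-K1 and H2-D1 were also highest there, at 922 and 1107 CPM in Con and 1020 and 1267 in TP.

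**Figure D1:**
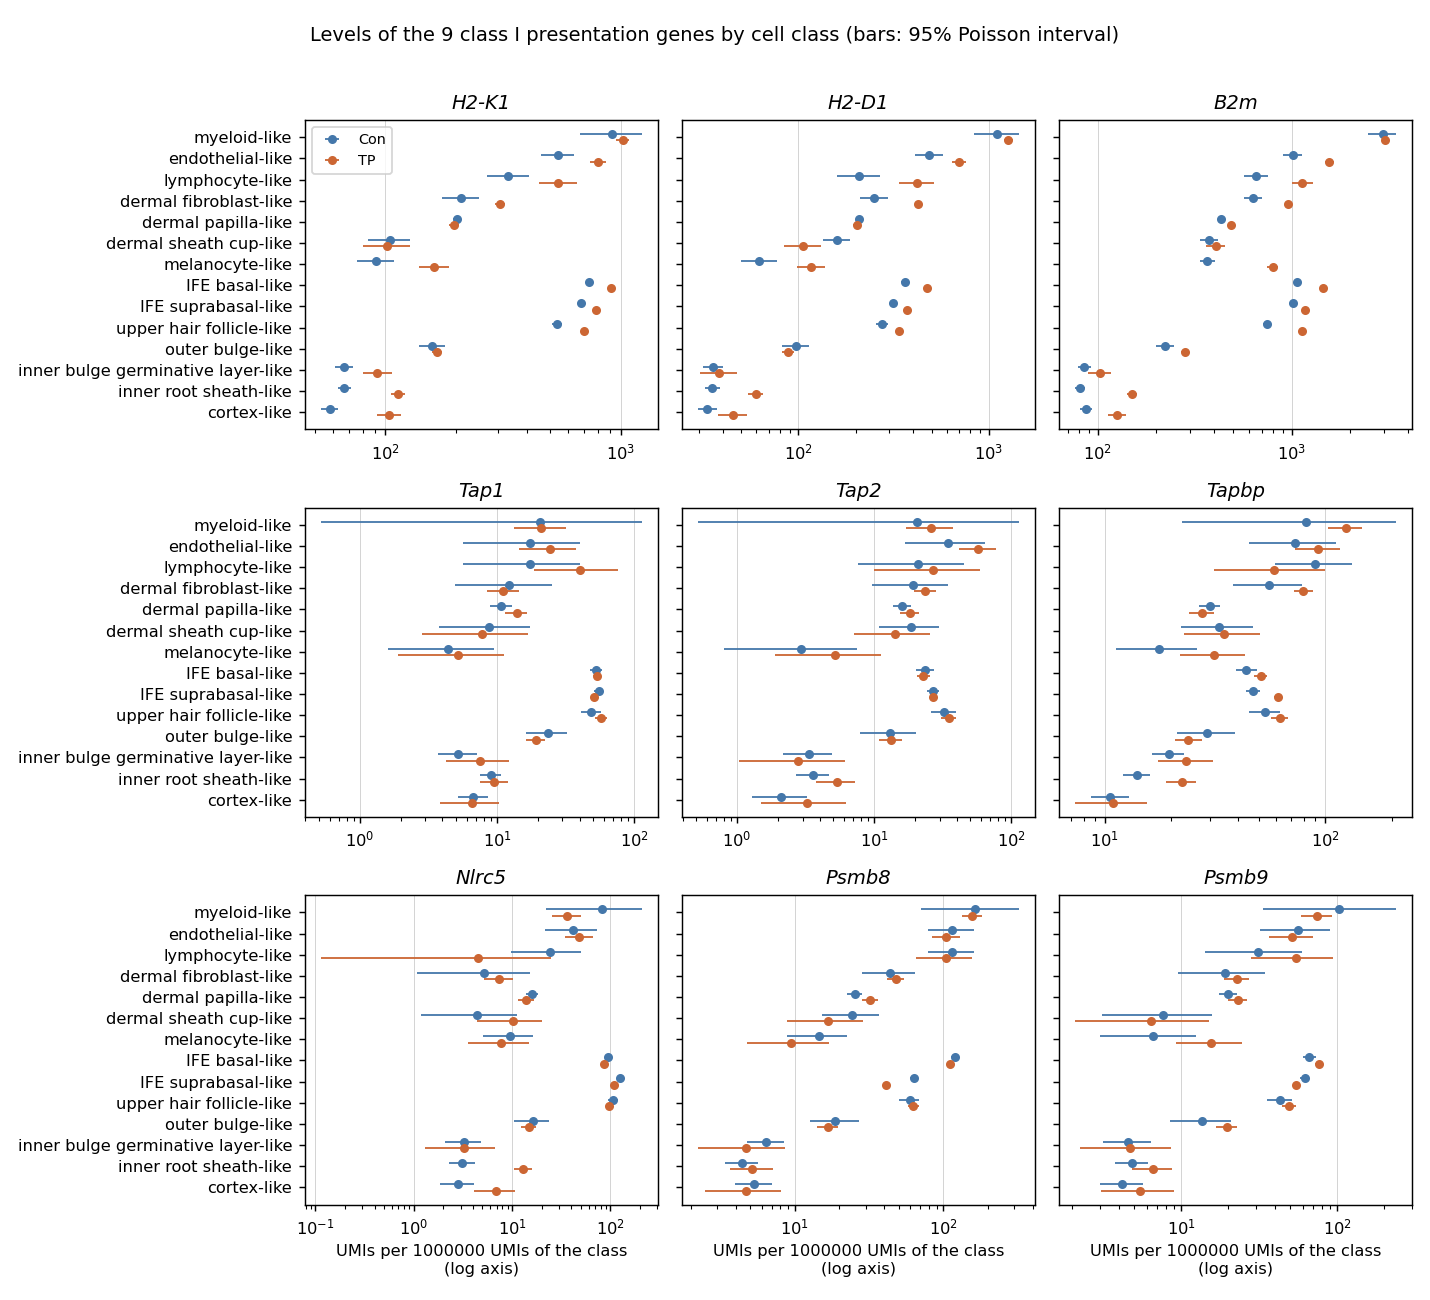
Level of each gene in 14 cell classes, as UMIs per 1000000 UMIs of the class on a log axis, Con in blue and TP in orange, with bars for the 95% Poisson interval. Every gene sits lowest in cortex-like, inner root sheath-like or germinative layer-like cells, except Tap1, which sits lowest in melanocyte-like cells, and H2-K1, H2-D1 and B2m sit highest in myeloid-like cells.

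In Con, all 9 members were at least 2-fold lower in the follicle pool than in epidermis, a call that 10.5% of the 13757 genes with at least 50 UMIs received. The median log2 ratio of the members was -3.33 (with 1 CPM added on both sides), against 0.39 for all these genes. H2-K1 was at 697 CPM (686 to 708) in epidermis and 68.5 (65.7 to 71.4) in the follicle, 10.2-fold lower (9.74 to 10.6). H2-D1 was at 330 and 37.6 CPM, 8.77-fold lower (8.26 to 9.32). B2m was at 1031 and 90.2 CPM, 11.4-fold lower (11 to 11.9). The intervals of the pools did not overlap for any member.

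The transporter and its chaperone showed the smaller differences. Tap1 was at 54.4 CPM in epidermis and 8.18 in the follicle of Con, 6.64-fold lower (5.82 to 7.61). Tap2 was at 25.7 and 3.55 CPM, 7.25-fold lower (5.94 to 8.91). Tapbp was at 46.1 and 14.9 CPM, 3.09-fold lower (2.77 to 3.44), the least of the 9.

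The immunoproteasome and Nlrc5 showed the larger ones. Psmb8 was at 81.5 and 5.80 CPM in Con, 14.0-fold lower in the follicle (12.1 to 16.4). Psmb9 was at 63.3 and 4.99 CPM, 12.7-fold lower (10.8 to 15.0). Nlrc5 had the largest difference, at 115 and 3.67 CPM, 31.2-fold lower (26.0 to 37.8).

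In TP, all 9 members were again at least 2-fold lower in the follicle pool, where 8.38% of 13891 genes were. The median log2 ratio was -2.45, against 0.46 for all genes. With coarser clusters (resolution 0.5 in place of 1), where 1726 suprabasal-like TP cells fell into the follicle pool, the count was 3. H2-K1 was at 818 CPM in epidermis and 132 in the follicle (6.20-fold, 5.97 to 6.45), H2-D1 at 398 and 67.5 (5.90-fold, 5.59 to 6.23), and B2m at 1240 and 196 (6.32-fold, 6.12 to 6.52). Nlrc5 was at 103 and 12 CPM, 8.56-fold lower (7.54 to 9.75), again the largest difference, and Tapbp at 58.5 and 21.6, 2.71-fold lower (2.46 to 3.0), again the smallest.

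Within the follicle the classes differed. Germinative layer-like, inner root sheath-like and cortex-like Con cells lay close together, with H2-K1 at 66.7, 66.9 and 57.9 CPM and Nlrc5 at 3.22, 3.13 and 2.83 CPM. Outer bulge-like cells, the stem cell layer of the upper follicle, had H2-K1 at 158 CPM and Nlrc5 at 16.2. Of the 9 members, 7 were at least 2-fold lower in outer bulge-like cells than in epidermis in Con (9.17% of genes) and 8 in TP (10.0%). Tap2 missed the 2-fold line in both, at 0.504 of the epidermal level in Con (0.306 to 0.786) and 0.507 in TP (0.416 to 0.614), and Tapbp missed it in Con at 0.633 (0.459 to 0.854).

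Upper hair follicle-like cells, which were in neither pool, had none of the 9 members at least 2-fold lower than epidermis, where 3.73% of genes were in Con and 4.02% in TP. Their ratios to epidermis ran from 0.679 for Psmb9 to 1.25 for Tap2 in Con and from 0.822 for Psmb9 to 1.35 for Tap2 in TP.

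**Figure D2:**
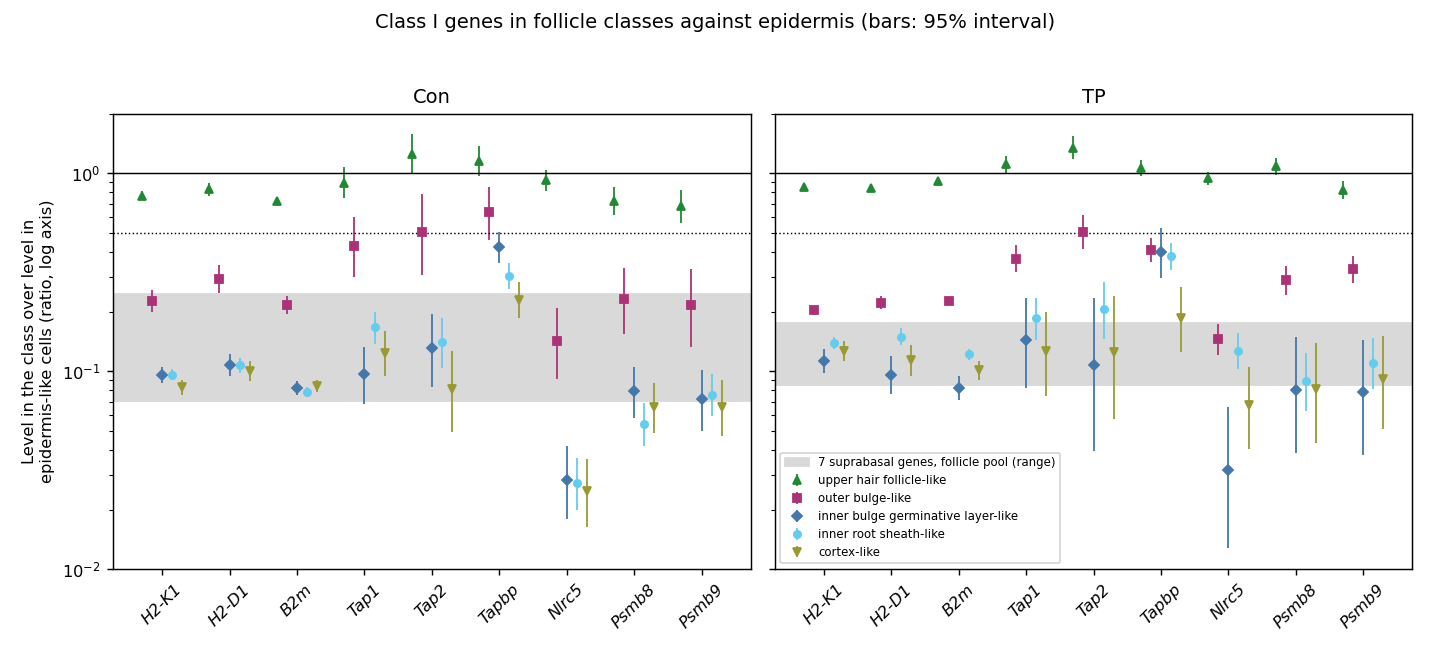
Ratio of each gene's level in 5 follicle classes to its level in epidermis-like cells (log axis, 95% intervals as bars) in Con and TP, with solid and dotted lines at 1 and 0.5. Upper hair follicle-like cells sit near 1, outer bulge-like cells between 0.141 and 0.633, and the deeper classes within or below the grey band except for Tapbp and, in TP inner root sheath-like cells, Tap1 and Tap2. The band spans the same ratio for 7 suprabasal genes in the follicle pool (0.0708 to 0.246 in Con, 0.085 to 0.175 in TP).

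Counted per cell at one depth, the same separation was seen. With every cell thinned to 1000 UMIs, which left out 5362 Con and 883 TP cells that had fewer, 79.4% of follicle-like Con cells had no UMI of any of the 9 genes, against 18.5% of epidermis-like cells. In TP these shares were 67.4% and 13.1%. B2m was seen in 8.89% of follicle-like Con cells (8.39 to 9.41) and in 53.0% of epidermis-like ones (51.6 to 54.4). Unthinned, the shares were 19.0% and 76.1%, with median depths of 2163 and 2911.5 UMIs. Nlrc5 was seen in 0.323% (0.230 to 0.441) and 10.8% (9.94 to 11.7) of these thinned cells.

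Free RNA in the droplets gives UMIs to cells that do not express a gene, and 2 measures of it stand beside the low follicle levels. The first was a list of 13 genes of other cell types. Their summed level in the follicle pool was 0.219 of that in the whole Con library. By gene it ranged from 0.0909 to 0.550, the highest being Dcn. The members stood at 0.102 (Nlrc5) to 0.586 (Tapbp) of their own library level, 7 of 9 above the sum. In TP the list stood at 0.0543 and all 9 members above it, at 0.186 to 0.474. In germinative layer-like Con cells the list stood at 0.354, and only Tapbp, at 0.765, was above. There the ratio ran from 0.0953 to 1.09 by gene, with Dcn the highest, so the sum depends much on the genes listed. In germinative layer-like TP cells the list stood at 0.101, with 8 members above.

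The second measure was the ratio of follicle to epidermis for 7 suprabasal genes (Krt1, Krt10, Krtdap, Sbsn, Lor, Dmkn and Calm4), chosen after the data were seen. They are also the fixed markers by which suprabasal-like clusters were named and so entered the epidermis pool. Their ratio is thus not independent of the pools, and the places of the members beside them are descriptions. In the Con follicle pool the ratio of these genes ran from 0.0708 to 0.246 with a median of 0.0808. The members had a median of 0.0982, with 6 of 9 above the median gene and only Tapbp above all 7. Nlrc5, at 0.0320 of its epidermal level, lay below all 7, and Psmb8 (0.0713) and Psmb9 (0.0788) lay below the median gene. By the first measure Nlrc5 (0.102) and Psmb8 (0.210) stood below the summed list (0.219) and Psmb9 (0.233) above it. That sum includes Dcn, at 0.550, and no sum without Dcn was made, so places close to it are uncertain. In outer bulge-like cells 8 of 9 members lay above all 7 suprabasal genes in both libraries. The part of free RNA in the follicle levels of the members was not tested.

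Immunoproteasome subunits replace constitutive ones in the same position, so each was set against its partner within a class, which removes the class total. Psmb8, the counterpart of Psmb5, had 54.3 UMIs per 100 Psmb5 UMIs in epidermis (51.2 to 57.4) and 3.95 in the follicle of Con (3.40 to 4.56). In TP the values were 32.4 (31.2 to 33.6) and 6.0 (5.19 to 6.91). Psmb9 had 41.9 UMIs per 100 of its partner Psmb6 in epidermis (39.4 to 44.6) and 3.97 in the follicle of Con (3.38 to 4.64), and 36.3 and 7.38 in TP. Psmb10, the remaining inducible subunit and no member, had 12.5 UMIs per 100 Psmb7 in epidermis (11.2 to 14.0) and 9.17 in the follicle of Con (8.27 to 10.2), a far smaller difference. The constitutive genes themselves differed little between the pools, with follicle over epidermis ratios of 0.979 for Psmb5, 0.832 for Psmb6 and 1.06 for Psmb7 in Con.

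**Figure D3:**
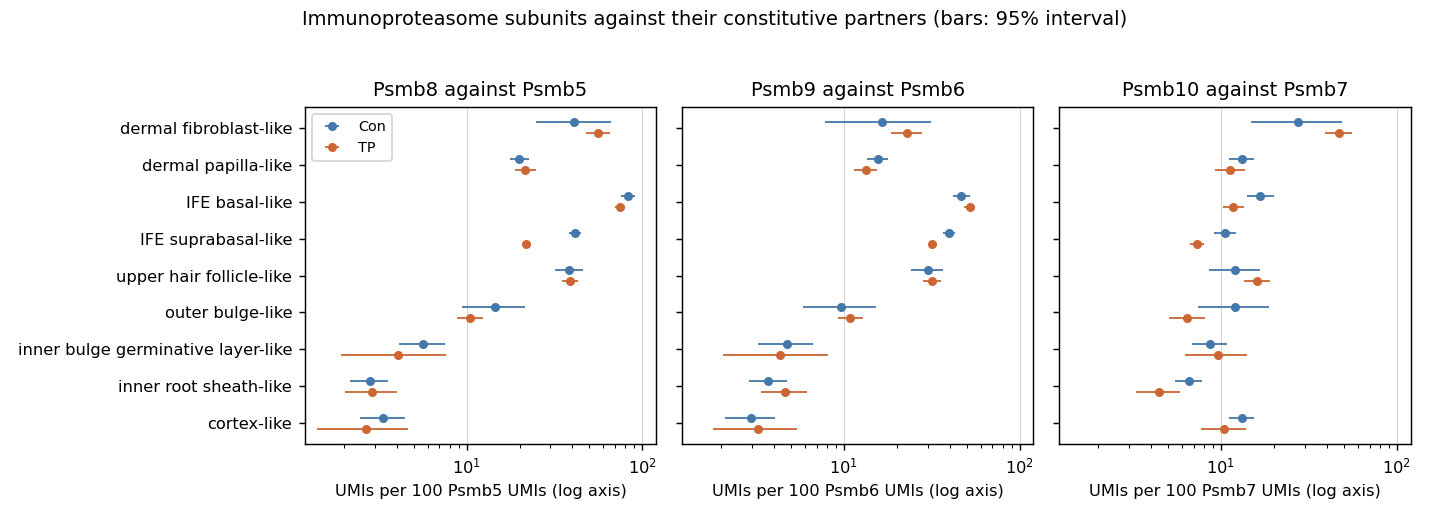
UMIs of Psmb8, Psmb9 and Psmb10 per 100 UMIs of the constitutive subunits Psmb5, Psmb6 and Psmb7 (log axes) in 9 cell classes, Con in blue and TP in orange, with 95% intervals as bars. Psmb8 and Psmb9 fall from epidermis to the deeper follicle classes, whereas Psmb10 stays between 4.45 and 16.8 in all keratinocyte classes.

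Genes related to the pathway were counted by list. Over all genes, 10.5% were at least 2-fold lower in the follicle pool in Con and 8.38% in TP. Of the 7 non-classical class I genes, 6 had enough UMIs and all 6 were at least 2-fold lower in the follicle pool of Con, and 5 of 6 in TP. H2-T22 was at 66.9 CPM in epidermis and 6.77 in the follicle of Con, H2-T23 at 63.8 and 6.62, and H2-Q4 at 70.6 and 11.6, while H2-Q6, H2-Q7 and H2-M3 were lower at levels of at most 5.16 CPM. Of the 9 processing and loading partners, 2 were lower in Con, the proteasome activator subunits Psme1 (0.383 of epidermis, 0.363 to 0.404) and Psme2 (0.372, 0.350 to 0.395). The chaperones Pdia3 (0.879), Canx (1.15) and Calr (0.690) were within 2-fold. In TP only Tapbpl, a tapasin relative, passed 2-fold, at 0.438, so 1 of 9 is near the share over all genes.

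Of the 16 genes of class I transcription and interferon signalling, 15 had enough UMIs. At least 2-fold lower in the follicle were 3 in Con, against 10.5% of all genes, and the same 3 in TP, against 8.38%. These were Jak1, a kinase of the interferon receptors (0.205 in Con and 0.318 in TP), Ifngr1, the ligand-binding chain of the interferon-gamma receptor (0.261 and 0.270), and Irf9 (0.418 and 0.377). Irf1 and Ifnar2 were at least 2-fold higher in the follicle of TP, at 2.49 and 2.40, where 24.4% of all genes were, against 18.4% in Con, so 2 of 15 is no more than the share over all genes. Creb1 and Irf2, abundant genes of this list, were at 1.49 and 0.652 in Con. Of 16 interferon-stimulated genes, 10 had enough UMIs in Con, where Gbp2 and Irgm1 were lower, Cxcl10 was higher and the others were within 2-fold once 1 CPM was added. In TP 14 had enough, of which only Iigp1 passed 2-fold with 1 CPM added, being lower. Levels of a few CPM or less shrink on this scale, and without the addition Oasl2 stood at 0.396 and Cxcl9 at 3.58 in Con. In TP 6 more passed 2-fold without it, of which Ifit1 (0.494), Irgm1 (0.420), Gbp2 (0.274), Ifi44 (0.251) and Rsad2 (0.0520, 0.00130 to 0.302, from 1 UMI in the follicle) were lower and Socs1 (2.49) higher.

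The 4 class II genes with enough UMIs were all lower in the Con follicle, at 0.193 (H2-Eb1) to 0.316 (H2-Ab1) of an epidermal level of at most 28.7 CPM, and 3 of 4 in TP. Over all genes 10.5% were lower in Con and 8.38% in TP. All 4 class II genes belong to the list of other cell types used for free RNA. Of that list H2-Eb1 had the highest ratio in epidermis, at 1.12 of its library level in Con and 0.265 in TP. Among 7 genes linked to follicle immune privilege, Cd200, an inhibitory surface ligand, was 3.30-fold higher in the follicle of Con (2.48 to 4.45) and 10.5-fold in TP (9.03 to 12.2). Outer bulge-like cells were 614 of the 12626 follicle-like cells in Con and 1564 of 3461 in TP, and Cd200 was not compared by class. Mif, which restrains natural killer cells, was lower in Con (0.334) and at 0.515 in TP, and Cd274, encoding PD-L1, was lower in both (0.220 and 0.186) from at most 207 UMIs. None of 5 genes of CD8 T cells and natural killer cells had enough UMIs.

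Within the epidermis the clusters were not alike. Among IFE basal-like cells, the cluster led by Krt14, Krt15 and Krt5 had H2-K1 at 900.1 CPM and Nlrc5 at 65.9 CPM in Con. The cluster led by Cdh13, Sox6 and Il20ra had less H2-K1 (360) and more Nlrc5 (146). The same order was seen in TP, with 983 and 62.6 CPM against 539 and 150. An unnamed cluster with Ghr, Il34 and Clca2 among its leading genes had the highest Nlrc5 level of any class, 156 CPM in Con and 163 in TP, with H2-K1 at 292 and 454. Psmb8 was at 120 CPM in basal-like against 63.2 in suprabasal-like cells in Con and at 111 against 41.3 in TP, but not in every cluster. The Cdh13 cluster, the basal-like one with the most cells, was at 38.9 CPM in Con, below the suprabasal-like clusters (61.9 and 66.8), and at 41.8 in TP, between them (36.7 and 49.9). The other basal-like clusters were at 173 and 109 CPM in Con and 141 and 115 in TP.

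Over 45 points, each a class in 1 library, the correlation of a member with the mean of the other 8 on a log2 scale ran from 0.737 (Nlrc5) and 0.801 (Tap1) to 0.979 (H2-K1). The comparison took in 13028 genes, the members included. The other genes most like the mean of the members were H2-T22 (Pearson r = 0.930), H2-T23 (0.906), Sh3bgrl3 (0.888), H2-Q4 (0.887), Tmsb4x (0.871), Jak1 (0.865), Dusp1 (0.864), Ifngr1 (0.858), Clec2d (0.854) and Ostf1 (0.85). The points share libraries, depth and free RNA, and counts of the H2 genes are uncertain as to gene, so these values are descriptions.

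In the epidermis, no member was at least 2-fold higher in TP than in Con, a call that 1.46% of 13468 genes received. The median log2 ratio of the members was 0.01, against -0.22 for all genes. Tapbp had the highest ratio of TP to Con, 1.27 (1.18 to 1.36), followed by H2-D1 at 1.21 (1.18 to 1.24), B2m at 1.2 (1.19 to 1.22) and H2-K1 at 1.17 (1.15 to 1.19). Tap1 and Tap2 were at 0.953 (0.892 to 1.02) and 1.01 (0.917 to 1.11), within counting error of 1. Psmb8 was lowest at 0.712 (0.673 to 0.753) and Nlrc5 at 0.895 (0.855 to 0.937), with Psmb9 at 0.940 (0.884 to 1.00). With a TMM factor of 0.843 for the epidermis the median of the members became 0.25 on the log2 scale, so small ratios depend on the scaling: divided by it, the ratios of Nlrc5, Psmb9 and Tap1 turn above 1 and that of Psmb8 stays below. Psmb8 also differed by layer: its TP to Con ratio was 0.652 (0.604 to 0.706) in suprabasal-like and 0.924 (0.85 to 1.00) in basal-like cells, a difference that was not tested.

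In the follicle pool, 3 members were at least 2-fold higher in TP, where 6.38% of 13800 genes were, and the ratio was above 1 for all 9. Nlrc5 was 3.27-fold higher (2.62 to 4.09), Psmb9 2.32-fold (1.90 to 2.85) and B2m 2.18-fold (2.07 to 2.28). Tap2 stood at 2.27 (1.78 to 2.90), but under 2-fold once 1 CPM was added. The pools differed in makeup, though: outer bulge-like cells, the follicle class with the highest level of every member, were 614 of the 12626 Con cells and 1564 of the 3461 TP cells. With clusters weighted at their Con shares no member reached 2-fold and the median log2 ratio fell from 0.93 to 0.35. Without outer bulge-like cells 1 member did. The 7 suprabasal genes moved with the members in the pool, where their median ratio of follicle to epidermis was 0.0808 in Con and 0.112 in TP, against 0.0982 and 0.169 for the members. In cortex-like cells it was 0.0720 and 0.106, against 0.0830 and 0.114, and in outer bulge-like cells 0.0813 and 0.0792, against 0.231 and 0.287. Their part in the TP to Con ratios was not tested.

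Within the follicle classes the TP to Con ratios were smaller for most genes. In outer bulge-like cells they ran from 0.820 for Tapbp (0.592 to 1.16) to 1.43 for Psmb9 (0.909 to 2.38), and only B2m, at 1.26 (1.12 to 1.41), had an interval above 1. In inner root sheath-like cells H2-K1 and H2-D1 were at 1.69 (1.54 to 1.86 and 1.48 to 1.92), B2m at 1.86 (1.71 to 2.02) and Nlrc5 at 4.15 (2.89 to 6.04), from 46 Nlrc5 UMIs in Con and 95 in TP. The makeup of this class differed as well: its cluster 24, led by Prr9, S100a3 and Crym and with the most Nlrc5, was 319 of 5419 Con cells and 162 of 960 TP cells, with median depths of 4832 and 10296 UMIs. Nlrc5 was at 8.50 CPM in Con and 27.3 in TP in that cluster, at 2.17 and 5.28 in cluster 1, and at 2.66 and 7.86 in cluster 16. The 7 suprabasal genes moved with the members in inner root sheath-like cells: their median ratio of inner root sheath-like to epidermis-like cells was 0.0846 in Con and 0.139 in TP, and that of the members was 0.0959 and 0.139. In germinative layer-like cells H2-K1 was at 1.39 (1.17 to 1.64) and Nlrc5 at 1.02 (0.369 to 2.43). Library and condition cannot be told apart in any of these ratios.

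**Figure D4:**
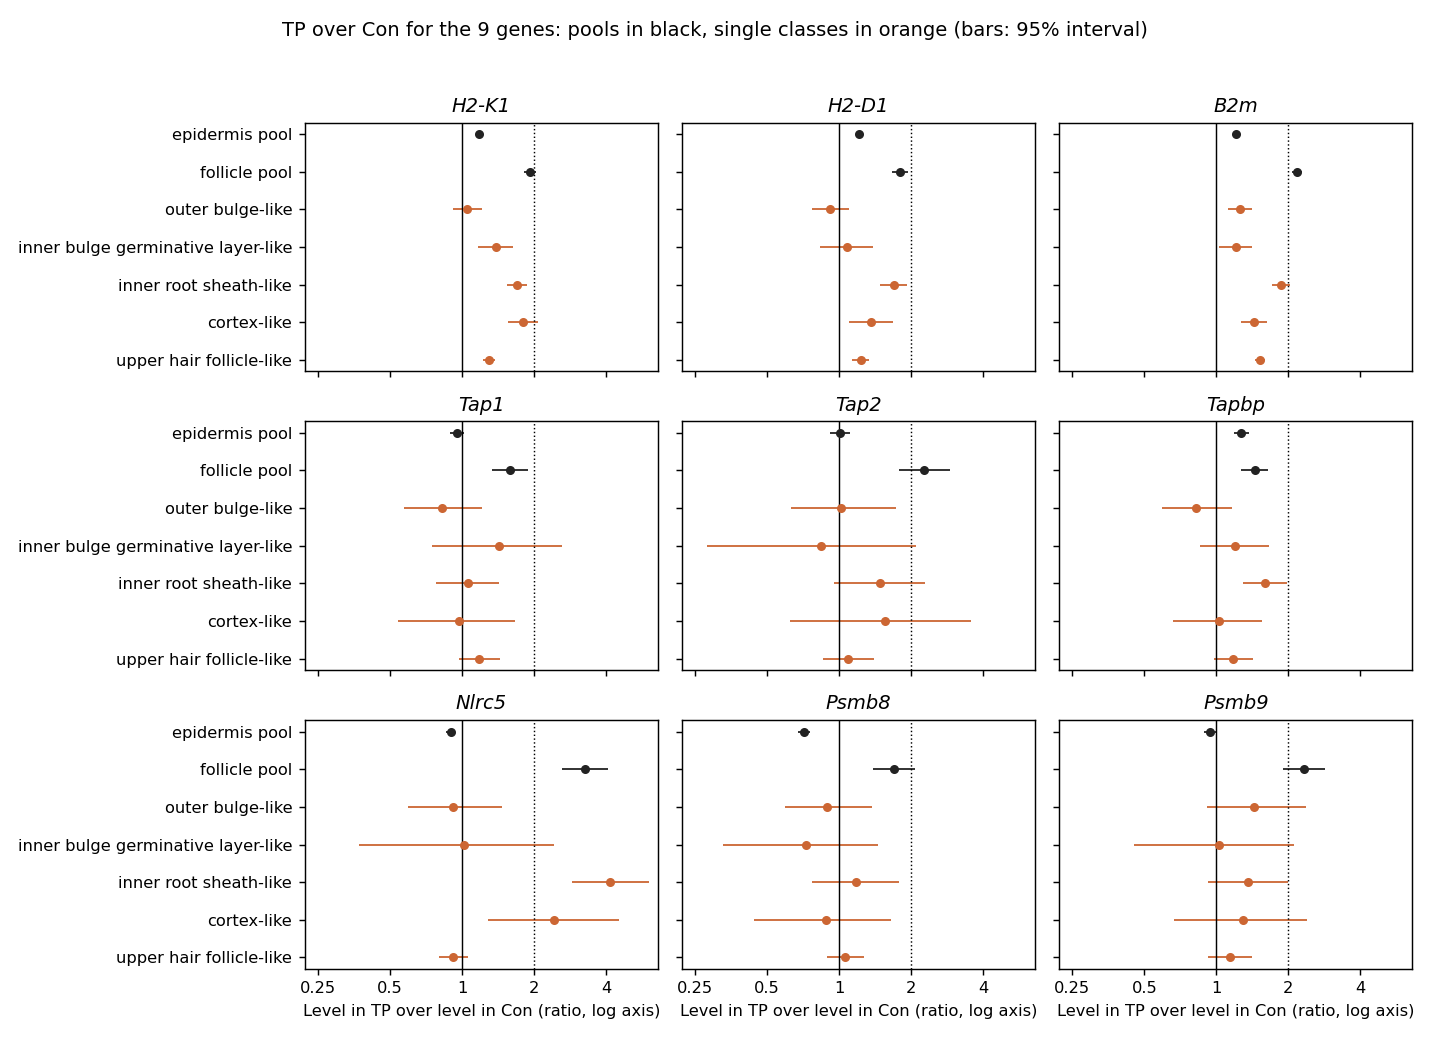
Ratio of TP to Con (log axis, 95% intervals as bars) for each gene in the epidermis and follicle pools (black) and in 5 single classes (orange), with solid and dotted lines at 1 and 2. All 9 genes lie above 1 in the follicle pool, whereas in outer bulge-like cells the ratios run from 0.820 to 1.43.

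Counted over all kept cells with no regard to class, every member was higher in TP, from 1.52-fold for Psmb8 (1.45 to 1.59) to 2.28-fold for B2m (2.25 to 2.31). Epidermis-like cells were 13.3% of Con and 35.9% of TP cells, and held 38.2% (Tapbp) to 67.2% (Nlrc5) of the members' UMIs in Con and 60.4% (Tap2 and Tapbp) to 74.8% (Nlrc5) in TP. Myeloid-like cells, which have the most class I per UMI, held 0.365% of the B2m UMIs in Con and 2.84% in TP.

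The dermal papilla, the mesenchyme at the base of the follicle and part of its privileged site, was set against dermal fibroblast-like cells. In Con no member was at least 2-fold lower in dermal papilla-like cells, where 7.46% of 12017 genes were. H2-K1 was at 202 and 209 CPM in dermal papilla-like and fibroblast-like cells (ratio 0.966, 0.804 to 1.17), and B2m at 433 and 634 (0.683, 0.613 to 0.761). Nlrc5 was higher in the papilla, at 16 against 5.22 CPM, from 3 UMIs in fibroblast-like cells (ratio 3.07, 1.03 to 15.0), and was the 1 member at least 2-fold higher, where 16.3% of genes were. In TP no member was, against 20.8% of genes. In TP 2 members were at least 2-fold lower, against 9.91% of 11972 genes: H2-D1 at 202 and 425 CPM (0.475, 0.446 to 0.507) and Tapbp at 27.5 and 79.3 (0.347, 0.294 to 0.409). B2m stood at 0.507 (0.486 to 0.529). There were 219 fibroblast-like cells in Con and 679 in TP, which limits the Con values. Of the non-classical genes, H2-T23 was at 7.49 against 85.3 CPM in Con (0.0878, 0.0610 to 0.127). In TP it was at 8.12 against 97.8 CPM (0.0830, 0.0636 to 0.107), and H2-Q7 was at 0.361. H2-Q4, H2-T22 and H2-M3 were within 2-fold in both. Of the signalling genes, Irf1, Irf9 and Stat2 in Con and Ifngr1 and Jak1 in TP were at least 2-fold lower. Irf8 and Jak2 were at least 2-fold higher in both.

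Dermal fibroblast-like cells had none of the 8 members with enough UMIs at least 2-fold higher in TP, where 3.66% of genes were. Their ratios were 1.70 for H2-D1 (1.43 to 2.02), 1.51 for B2m (1.35 to 1.68) and 1.47 for H2-K1 (1.22 to 1.79). In dermal papilla-like cells the same genes were at 0.969, 1.12 and 0.971, but this class was made up of 2 clusters in different shares. Cluster 6 held 2416 Con and 459 TP cells, and cluster 11 held 1543 and 931. H2-D1 was at 174 CPM in Con and 234 in TP in cluster 6, and at 246 and 189 in cluster 11. H2-K1 was at 172 and 204 CPM in cluster 6 and at 233 and 193 in cluster 11, so both genes were higher in TP in one cluster and lower in the other. Of the interferon-stimulated genes with enough UMIs, 6 of 8 in Con and 10 of 13 in TP were at least 2-fold lower in dermal papilla-like than in fibroblast-like cells. Over all genes the shares were 7.46% and 9.91%. Bst2 (14.3 against 85.3 CPM in Con) and Gbp2 (2.99 against 27.9) were among the lower genes.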

How the data were processed

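The authors ran Cell Ranger 8.0.1 on the mm10 reference, and the deposited values are whole-number counts of UMIs per gene and barcode, not normalized. Barcodes needed 200 to 8000 detected genes and no more than 10% mitochondrial UMIs, and the 7.5% of barcodes most like artificial doublets were removed per library. Seurat 5.3.0 (R 4.3.3) integrated the libraries with 2000 variable genes and 30 components and clustered them at resolution 1. A class could name a cluster if its marker score reached 1 and at least 3 of its markers were higher there than elsewhere. Among such classes, the most markers among the cluster's 10 leading genes decided, and then the highest score. A cluster stayed unnamed if no class qualified or another class had more such leading markers. It was called mixed if its second highest score reached 4. Immune clusters were clustered again and named by a similar rule. UMIs were summed per class and library, and a level is a gene's sum over that of all genes. The 95% intervals of levels are Poisson (exact), those of ratios condition on the summed UMIs (exact binomial), and those of shares are Clopper-Pearson. A gene with at least 50 UMIs in both sides together was called at 2-fold on the log2(CPM + 1) scale. Python 3.11.15, numpy 2.4.6, scipy 1.17.1, pandas 2.3.3 and edgeR 4.0.16 (TMM factors only) were used, and the count functions were tested on simulated data. The members, the gene lists, the markers and the comparisons were chosen with earlier results of these data known, and the naming limits were set once clusters had been seen. The named genes are the members, up to 4 genes of most UMIs per list and those past 2-fold, and the 10 most alike.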

Additional observations from a re-analysis of the deposited data

Results flagged for a closer look

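With 1 library per group no sample could be set against its own group. In the TP to Con contrast, 3 members had intervals on opposite sides of 1 in the epidermis and follicle pools. Nlrc5 stood at 0.895 in epidermis-like and 3.27 in follicle-like cells, Psmb8 at 0.712 and 1.69, and Psmb9 at 0.940 and 2.32. With the TMM factor of 0.843 for the epidermis, Nlrc5 and Psmb9 turn above 1 there and Psmb8 alone of these 3 stays below, so the opposite directions of Nlrc5 and Psmb9 depend on the scaling. The difference between the pools was not tested. The makeup of the follicle pool moved with these ratios, since outer bulge-like cells were 614 of 12626 cells in Con and 1564 of 3461 in TP, and in outer bulge-like cells alone Nlrc5 stood at 0.920, Psmb8 at 0.885 and Psmb9 at 1.43. In inner root sheath-like cells Nlrc5 was at 2.17 CPM in Con and 5.28 in TP in cluster 1. It was at 2.66 and 7.86 in cluster 16, and at 8.50 and 27.3 in cluster 24. Psmb8 was at 5.29 CPM in Con and 5.63 in TP in cluster 1, at 2.66 and 1.85 in cluster 16, and at 4.78 and 7.79 in cluster 24. Psmb9 was at 4.69 and 4.22 CPM in cluster 1, at 3.98 and 4.62 in cluster 16, and at 7.43 and 11.3 in cluster 24. Inner root sheath-like cells held only 65 Con and 38 TP UMIs of Psmb8, and 71 and 48 of Psmb9. No intervals were made by cluster, so no direction is read from these values. These 3 members were also those whose Con follicle levels, at 0.0320, 0.0713 and 0.0788 of the epidermal ones, lay below the median of 7 suprabasal genes.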

How the results depend on the processing

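The count of 9 members lower in the follicle was 9 in Con under every alternative run. In TP it was 7 to 9, except at a clustering resolution of 0.5, where it was 3. There, 1726 suprabasal-like and 1227 cells of an unnamed cluster fell into 1 cluster of 3069 TP cells that took the name of the medulla and companion layer, and so entered the follicle pool. The count of members higher in TP in the follicle, 3, was 5 with TMM factors and at resolution 0.5, 0 with clusters weighted equally, at Con shares or with unnamed clusters nearest to follicle classes added, 1 with a pseudocount of 10 CPM or without outer bulge-like cells, 7 with means of ln(counts per 10000 + 1), and 8 with free RNA subtracted or upper hair follicle-like cells added, so it rests on these choices. Resolution 0.5, the unnamed clusters, the removal of outer bulge-like cells and basal cells alone as the epidermis compared with the follicle were chosen after seeing the data. In the epidermis the count stayed at 0. In the dermal papilla of Con, 0 became 1 with TMM factors. In TP, 2 became 4 with TMM factors and 1 with the ln means. Free RNA could not be subtracted for dermal cells, since the list holds their own genes. For keratinocytes it was subtracted by the summed list, which includes Dcn. In the follicle pool the list stood at 0.219 of its library level in Con and at 0.0543 in TP. The subtraction set Nlrc5 and Psmb8 at 0 CPM in the Con follicle pool, against 8.97 and 7.99 in TP. The count of 8 members higher in TP therefore carries this difference in subtraction. Each of the 135 single ratios of follicle to epidermis computed under the alternatives stayed below 1 in Con, and each of the 135 in TP. No paired analysis was possible because each group is 1 library, and none could be left out. Depth limits Tap1, Tap2, Nlrc5, Psmb8 and Psmb9 in the deeper follicle classes, where Tap2 had as few as 6 UMIs, and 1 library per group limits every comparison of TP with Con.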

Other observations

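The class II genes of dermal papilla-like cells, singled out after the values were seen, were set against dermal fibroblast-like cells. H2-Ab1, the beta chain of I-A, had 619 UMIs in Con (54.5 CPM) and 354 in TP (41.7 CPM), against 5.22 and 2.78 CPM in fibroblast-like cells, from 3 and 14 UMIs (ratios 10.4, 3.56 to 50.8, and 15.0, 8.80 to 27.7). In TP, where 20.8% of all genes were at least 2-fold higher in papilla-like cells (16.3% in Con), the other 3 class II genes with enough UMIs were as well, H2-Aa at 2.45, H2-Eb1 at 7.89 and the invariant chain Cd74 at 2.55 times the fibroblast level. In Con Cd74 was lower (0.244), and H2-Aa and H2-Eb1 had too few UMIs, with ratios of 0.231 and 0.267. Ciita, the class II transactivator, had 3 and 7 UMIs in papilla-like cells. H2-Ab1, H2-Aa, H2-Eb1 and Cd74 are on the list of other cell types used for free RNA, and myeloid-like cells numbered 13 in Con and 187 in TP. The part of free RNA in these papilla levels was not tested. The haplotype limit given for H2-K1 and H2-D1 holds for H2-Ab1, H2-Aa and H2-Eb1 too.

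In the epidermis of TP, Cxcl10 and Cxcl9, chemokines induced by interferon-gamma, were 3.46-fold (2.54 to 4.84) and 4.86-fold (2.56 to 10.4) higher than in Con, at 6.78 and 2.16 CPM against 1.96 and 0.445, the 2 of 14 interferon-stimulated genes with enough UMIs that were at least 2-fold higher once 1 CPM was added, against 1.46% of all genes. Others of the list were lower in TP with intervals below 1: Irf7 at 0.515 (0.360 to 0.741), Oasl2 at 0.613 (0.439 to 0.864), Bst2 at 0.648 (0.535 to 0.787) and Irgm1 at 0.702 (0.513 to 0.970). These ratios were not divided by the TMM factor of 0.843 for the epidermis. Divided by it, the intervals of Oasl2 and Irgm1 would reach above 1, and those of Irf7 and Bst2 would stay below. Without the added CPM, Rsad2 (20.7-fold, 3.57 to 831, from 57 UMIs against 1) and Ifit1 (3.27-fold, 1.41 to 9.29, from 54 against 6) were also past 2-fold, both named after their values were seen.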
